A study of Homo sapiens with 6 samples.

Results

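This account describes open chromatin around 7 genes that encode transcription factors, or partners of transcription factors, of plasma cells. They are IRF4, PRDM1, XBP1, POU2AF1, POU2F2, MEF2C and ZBTB20. Peaks of 6 libraries that shared at least 1 bp were merged into 75701 regions, and every region that overlapped the RefSeq record of one of the 7 genes, or lay within 100 kb of either end of it, was taken. That gave 152 regions, with 30 for IRF4, 22 for PRDM1, 9 for XBP1, 20 for POU2AF1, 18 for POU2F2, 22 for MEF2C and 31 for ZBTB20. A region within 1 kb of an annotated start was called promoter (13 regions), another region on the gene record internal (52 regions), and the rest distal (87 regions).

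The study profiled accessible DNA by ATAC-seq, in which the transposase Tn5 inserts adapters where chromatin is open, to learn how the histone demethylase KDM6A affects accessibility. The cells were ARP1, a human multiple myeloma line, with 3 libraries of KDM6A knockout cells (KO) and 3 of wild-type cells (WT). The labels give each library a biological replicate number, 1 to 3, but not whether the numbers stand for separate cultures or whether the knockout is a single clone. All p-values therefore rest on the spread among these 6 libraries. A list of peaks from bulk cells cannot tell fewer open cells from less openness in each cell.

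Plasma cells are the antibody-secreting end of the B cell lineage, and multiple myeloma is a tumour of these cells. IRF4 and PRDM1 (BLIMP-1) drive the change from B cell to plasma cell, and XBP1 expands the secretory pathway once the endonuclease ERN1 has spliced its RNA. POU2F2 (OCT-2) binds the octamer element of immunoglobulin promoters, and POU2AF1 (OCA-B) is its coactivator. MEF2C, a MADS-box factor, acts in B cell activation, and the zinc finger repressor ZBTB20 is known from mice for its part in durable antibody responses.

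The bases just before 6 annotated starts are shown, because they stand at or beside the start regions described for IRF4, PRDM1, POU2F2 and MEF2C, which range from called alike in both groups (IRF4) to called in WT lists alone. Each is 250 bases upstream of a start, 5′ to 3′ on the strand of the gene, from RefSeq on GRCh38.p14. Capitals mark matches to any of 6 short elements, searched on both strands. The first PRDM1 start and the first MEF2C start given lay in regions called in all 6 lists, while the second PRDM1 start lay in a region called in 2 KO and 3 WT lists and the second MEF2C start lay just beside a region called in 0 KO and 3 WT lists.
IRF4, plus strand, chr6:391502-391751: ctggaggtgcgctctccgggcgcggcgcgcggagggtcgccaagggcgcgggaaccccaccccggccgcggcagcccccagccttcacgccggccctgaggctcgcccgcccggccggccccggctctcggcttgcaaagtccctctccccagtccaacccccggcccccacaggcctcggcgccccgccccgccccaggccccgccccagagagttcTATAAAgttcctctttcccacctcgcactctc
PRDM1, plus strand, chr6:106086086-106086335: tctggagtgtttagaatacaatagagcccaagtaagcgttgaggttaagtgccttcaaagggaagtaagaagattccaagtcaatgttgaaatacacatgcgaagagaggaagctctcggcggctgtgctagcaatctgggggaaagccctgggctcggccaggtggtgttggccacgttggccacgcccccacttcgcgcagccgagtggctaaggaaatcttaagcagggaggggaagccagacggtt
PRDM1, plus strand, chr6:106098691-106098940: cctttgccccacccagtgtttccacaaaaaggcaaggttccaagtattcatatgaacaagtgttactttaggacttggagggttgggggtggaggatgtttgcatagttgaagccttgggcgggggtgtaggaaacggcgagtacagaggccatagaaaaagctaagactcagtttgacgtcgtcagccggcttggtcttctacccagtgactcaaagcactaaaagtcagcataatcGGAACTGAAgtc
POU2F2, minus strand, chr19:42132447-42132696: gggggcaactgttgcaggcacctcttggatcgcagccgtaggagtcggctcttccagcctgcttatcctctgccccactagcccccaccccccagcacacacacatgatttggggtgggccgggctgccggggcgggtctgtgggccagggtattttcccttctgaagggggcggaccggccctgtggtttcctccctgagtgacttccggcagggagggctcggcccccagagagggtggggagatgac
MEF2C, minus strand, chr5:88883185-88883434: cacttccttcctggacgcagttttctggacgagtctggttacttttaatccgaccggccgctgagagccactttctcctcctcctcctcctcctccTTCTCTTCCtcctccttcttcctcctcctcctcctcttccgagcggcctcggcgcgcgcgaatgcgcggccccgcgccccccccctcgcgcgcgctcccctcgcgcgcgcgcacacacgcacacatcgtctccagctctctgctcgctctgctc
MEF2C, minus strand, chr5:88827193-88827442: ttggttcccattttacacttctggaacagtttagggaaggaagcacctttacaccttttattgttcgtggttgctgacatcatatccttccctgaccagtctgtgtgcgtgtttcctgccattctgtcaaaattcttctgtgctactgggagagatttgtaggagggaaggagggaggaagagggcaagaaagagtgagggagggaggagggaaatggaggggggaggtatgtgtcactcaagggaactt
The elements were the octamer ATGCAAAT, a short interferon response element GAAANNGAA, a short ETS-IRF composite element GGAANNGAA, the unfolded protein response element TGACGTGG, a MEF2 core TAAAAATA and a TATA box TATAAA. The IRF4 window held a TATA box 32 bases before the start, and 10.7% of the 35116 promoter windows in the table held that element. An ETS-IRF element stood 12 bases before the second PRDM1 start and, on the other strand, 154 bases before the first MEF2C start, against 6.58% of all windows. No match stood in the other 3 windows. Of all windows, 1.63% held the octamer, 6.88% the interferon response element, 0.612% the unfolded protein response element and 2.09% the MEF2 core. The GC content of the windows was 76.0% for IRF4 and 66.4% for POU2F2, 53.6% and 48.8% for the PRDM1 starts, and 66.0% and 48.4% for the MEF2C starts in the order shown. A match is a string of letters and not a measured site.

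Before the results, the libraries differ in depth. KO lists held 33055 to 37314 peaks, against 54443 to 56048 in WT lists. The fold values of each list are (pileup + 1) over (background + 1), which gave a background pileup of 2.05 to 2.56 in KO libraries and 3.11 to 3.77 in WT libraries, so that the KO background was 65.6% of the WT background. The weakest peak in a list had a fold of 3.09 to 3.31 in KO lists and 2.72 to 2.92 in WT lists. Depth and genotype cannot be told apart in counts of calls. Start regions of 7 of 9 plasma cell marker genes were called in all 6 lists and those of JCHAIN and SLAMF7 in 0 KO and 3 WT lists. The 7 include IRF4, PRDM1 and XBP1, which are themselves members described here. A gene counted if any 1 of its start regions was in all 6 lists. Where no start was given for a gene, as for SLAMF7, CD3E and HBA1, either end of its record counted. In all 6 lists stood the start regions of 1 of 6 B cell markers (CR2), 2 of 6 T cell markers (CD3E and CD8A), 0 of 6 myeloid markers and 0 of 5 erythroid markers. The B cell marker PAX5 had a start region in 2 KO and 3 WT lists, and the erythroid marker HBA1 in 3 KO and 2 WT lists. The remaining markers of these lineages, among them MS4A1, CD3D, CD14 and HBB, had no peak at their starts in any list.

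Around the 7 genes more regions were called in WT cells than in KO cells, as in the whole genome. Of the 152 regions, 58 were called in all 6 lists (38.2%, against 31.2% of all regions). All 3 KO lists called 58 (38.2%, against 32.2% of all regions), and all 3 WT lists called 86 (56.6%, against 52.5%). No KO list held 70 of them (46.1%, against 40.8%) and no WT list held 4 (2.63%, against 7.22%). More WT than KO lists called 88 regions (57.9%, against 55.7%), and more KO than WT lists called 4 (2.63%, against 8.95%). Of the 44 regions found in a single list, 40 came from a WT list (90.9%, against 77.9%). Of the 52 internal regions 35 were in no KO list (67.3%), against 46.1% of all regions away from annotated starts. All 3 WT lists called 20 of the 52 (38.5%, against 46.7%), so internal regions were in all lists of a genotype less often in WT cells too. These differences were not tested because regions are not replicates.

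**Figure D1:**
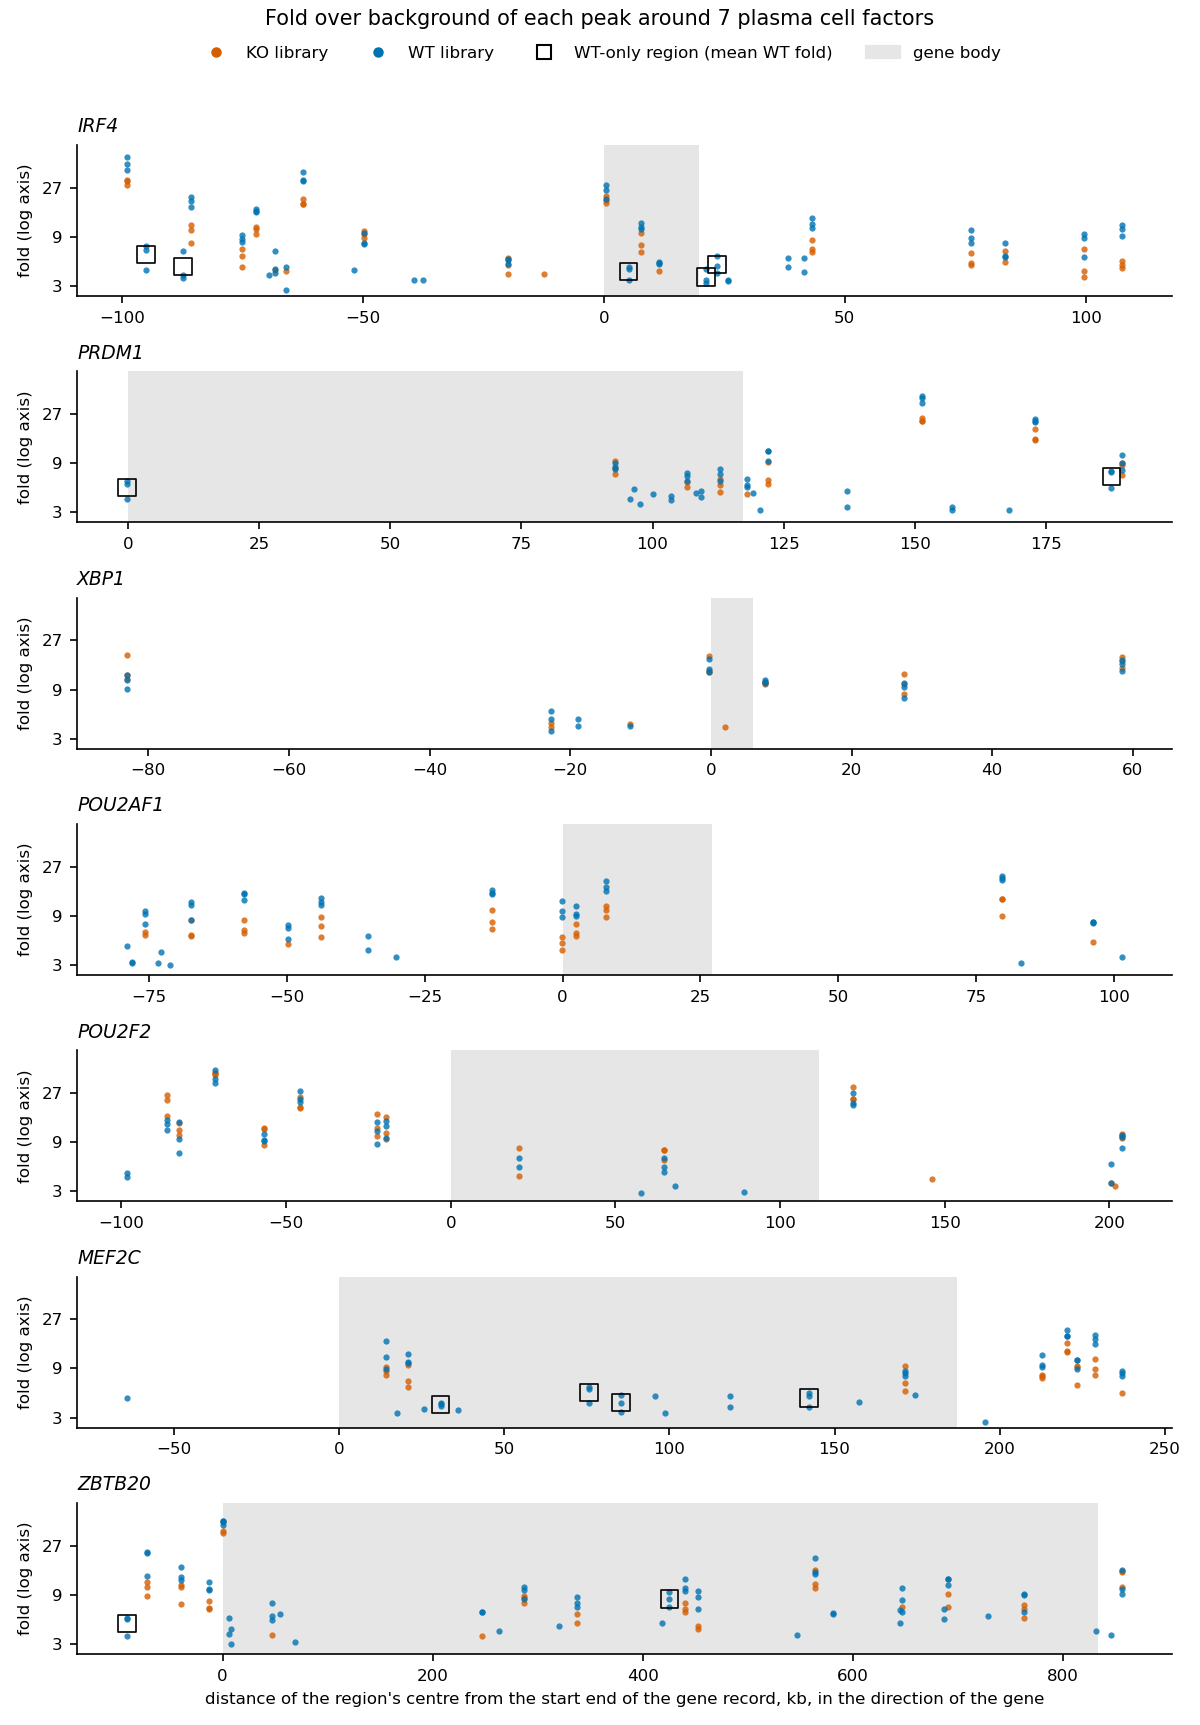
Fold over background on a log axis (vertical) against distance from the start end of the gene record in kb (horizontal) for the 152 regions of the 7 genes. Orange points are KO libraries, blue points WT libraries, shaded blocks the gene bodies, and squares the 13 regions called in 0 KO and 3 WT lists, which lie at low folds.

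A region was called WT-only when it stood in 3 of 3 WT lists and 0 of 3 KO lists, and KO-only in the converse case. WT-only regions were 13 of the 86 (15.1%), close to the 17.3% of all regions called in 3 WT lists. KO-only regions were 0 of 58, against 0.39% of all regions called in 3 KO lists. Neither share set the 7 genes apart from the genome. By class, WT-only regions were 2 of 11 at promoters, where the share over all start regions was 1.7%, and 11 of 75 elsewhere, where it was 21.9%. The 75 include regions at starts of other genes, none of them WT-only, whereas the 21.9% is over regions away from all annotated starts, so these sets are not alike. Both promoter regions of that kind, at PRDM1 and MEF2C, lay at a start of a gene that has 2 further start regions, of which 1 was called in all 6 lists.

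**Figure D2:**
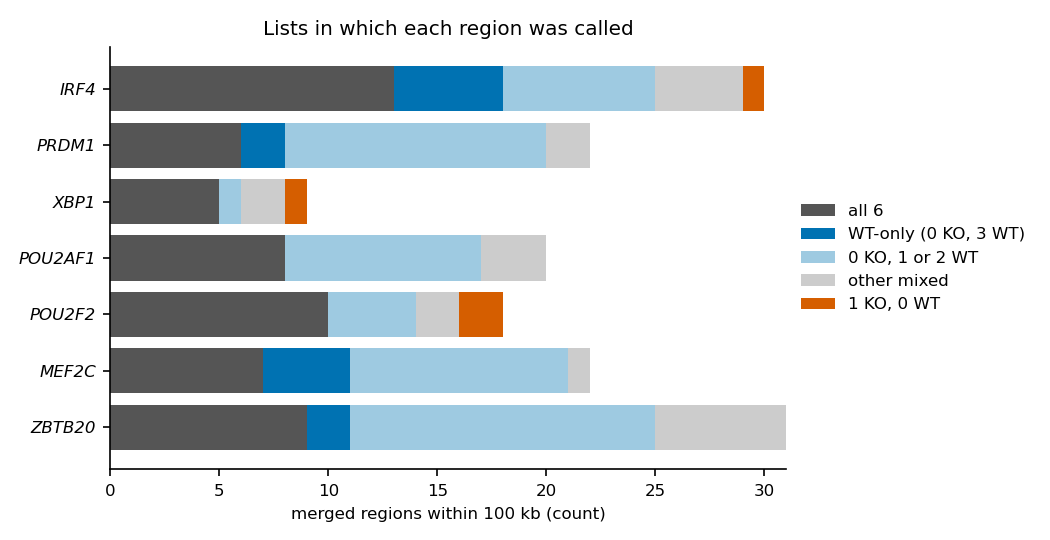
Number of merged regions (horizontal) for each of the 7 genes, split by the lists that called them. WT-only regions were found at IRF4 (5), PRDM1 (2), MEF2C (4) and ZBTB20 (2), and the orange parts are the 4 regions called in 1 KO list and no WT list.

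The WT-only regions were weak peaks. Their mean WT fold ran from 3.67 to 8.19 and their mean percentile by −log10 p-value within the WT lists from 12.3 to 61.6. Their median WT fold was 4.74, against 5.27 for all 6871 WT-only regions and 11.4 for the 58 regions of the 7 genes called in all 6 lists. In 12 of the 13, at least 1 WT fold was under 2 times the highest KO threshold of 3.31. When each list was cut to its strongest 33055 peaks, the length of the shortest list, 1 of the 67 regions then called in 3 WT lists was WT-only and 0 of 56 were KO-only, against 7.24% and 3.82% over all regions. Without WT replicate 1 the WT-only regions numbered 22 of 97, and the share over all regions was then 21.3%.

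**Figure D3:**
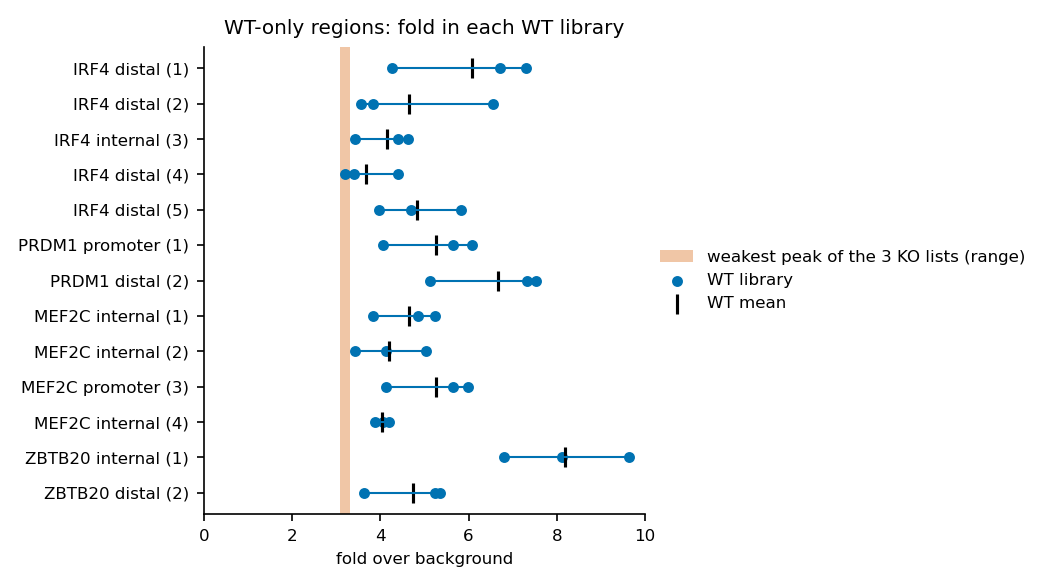
Fold over background (horizontal) in each of the 3 WT libraries for the 13 WT-only regions, ordered by gene and position, with the WT mean as a black tick. The orange band is the fold of the weakest peak of the KO lists, 3.09 to 3.31, and a region inside ZBTB20 lies farthest from it.

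Levels were compared for the 23589 regions called in all 6 lists. Each region was ranked in each library by its −log10 p-value, the rank was turned into a normal score (a rank on the scale of a standard normal distribution), and scores were compared with limma and Benjamini-Hochberg adjustment over all 23589 at 0.05. Of the 58 regions near the 7 genes, 3 were lower in KO cells and 4 higher. Over all regions 3.06% were lower and 4.08% higher, and 48.7% had a score difference above 0. All 3 KO ranks lay below all 3 WT ranks in 11 of the 58, where 17.3% of all regions did so, and above them in 15, where 17.8% did so. An exact permutation test of 3 against 3 libraries cannot give a two-sided p below 0.1 for a single region. Leaving out KO replicate 1, 2 or 3 gave 1, 1 and 3 lower regions and 1, 0 and 1 higher. None of the 7 calls held when any 1 WT library was left out, and no region of the genome passed either, with a smallest adjusted p of 0.0610 to 0.0949 in limma and 5113 to 5969 regions at an unadjusted p under 0.05.

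IRF4 lies on chromosome 6 at 391752 to 411443, plus strand. Its start region at 389269 to 395072 was strong in both groups. The fold there was 20.5, 22.6 and 19.4 in KO libraries and 20.9, 28.7 and 25.6 in WT libraries. As percentiles among the shared regions the values were 91.3 ± 0.561 in KO cells and 89.5 ± 2.82 in WT cells (SD, n = 3 each), so the groups overlapped. The score difference was 0.095 ± 0.167 (SE), with an adjusted p of 0.732 in limma. Inside the gene, the region at 398273 to 400673 had folds of 7.52, 9.83 and 6.45 in KO libraries and 11.3, 10.7 and 12.2 in WT libraries, with an adjusted p of 0.506 in limma.

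Around IRF4 most score differences were below 0. Of the 13 shared regions, 11 of them distal, 10 had a score difference below 0 and 3 above 0, with a median of -0.44, whereas the median over all shared regions was -0.02. The region at 498624 to 500073, which lies 87181 bp past the IRF4 end inside EXOC2, a gene for an exocyst subunit, was lower in KO cells. Its pileups were 15, 15 and 15 in KO libraries and 49, 47 and 43 in WT libraries. Its folds were 4.85 ± 0.379 in KO cells and 10.5 ± 1.23 in WT cells (SD, n = 3 each). Its percentiles were 6.93, 8.25 and 5.90 in KO libraries and 46.9, 42.1 and 33.2 in WT libraries. The groups stood far apart, with a score difference of -1.24 ± 0.174 (SE) and an adjusted p of 0.0192 in limma. The strongest distal region, at the start of the phosphatase gene DUSP22 (291155 to 294252), had folds of 28.3, 31.5 and 31.7 in KO libraries and 46.1, 53.5 and 40.0 in WT libraries. Although its KO ranks were all below its WT ranks, the adjusted p was 0.329 in limma.

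A different direction was seen at 341301 to 342722, inside DUSP22 and 49030 bp before the IRF4 start. Its percentiles were 55.2, 52.1 and 50.9 in KO libraries and 25.7, 30.0 and 22.3 in WT libraries, without overlap. The score was higher in KO cells by 0.71 ± 0.163 (SE), with an adjusted p of 0.0394 in limma. Pileups at this region, which are not adjusted for depth, were 31, 30 and 30 in KO libraries and 36, 39 and 36 in WT libraries. Folds over the background of each library were 9.63, 10.2 and 8.70 in KO libraries and 7.90, 9.72 and 7.75 in WT libraries, which overlapped.

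IRF4 also held 5 of the 13 WT-only regions, of the 21 called in 3 WT lists there (23.8%, against 17.3% over all regions). In DUSP22 these were at 296213 to 297132, with WT folds of 4.27, 7.29 and 6.71, and at 303856 to 304784, with WT folds of 3.84, 6.56 and 3.56. Within IRF4 itself, the region at 396104 to 397577 had WT folds of 3.42, 4.62 and 4.40. Just past its end, those at 412119 to 413739 and at 414341 to 416139 had mean WT folds of 3.67 ± 0.641 and 4.84 ± 0.934 (SD, n = 3). None of the 5 was WT-only at equal list length.

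PRDM1 lies on chromosome 6 at 105992690 to 106109938, plus strand, and 3 of its regions lay at starts. They differed in their calls. The region at 106084306 to 106086836, over the start at 106086336, was called in all 6 lists, with folds of 8.13, 9.51 and 7.02 in KO libraries and 8.97, 8.26 and 7.96 in WT libraries. Its percentiles were 41.8 ± 6.16 in KO cells and 26.2 ± 7.30 in WT cells (SD, n = 3 each). All KO ranks were above all WT ranks, with a score difference of 0.44 ± 0.188 (SE) and an adjusted p of 0.156 in limma.

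The other 2 start regions of PRDM1 stood in fewer KO than WT lists. At 106097984 to 106100483, over the start at 106098941 that has the ETS-IRF letters, the KO folds were 5.90 in replicate 2 and 5.33 in replicate 3, with no peak in replicate 1. WT folds there were 6.83, 7.29 and 6.08. At 105992042 to 105992852, over the lower end of the record, no KO list had a peak and the WT folds were 4.06, 6.08 and 5.66.

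Past the PRDM1 end lay its strongest regions. At 106140657 to 106147717, 30719 bp downstream, the fold was 22.9, 23.3 and 24.7 in KO libraries and 34.6, 40.1 and 38.4 in WT libraries. Every KO rank was below every WT rank, yet this broad region stayed at or above the 91.9 percentile in each library, with means of 94.0 ± 1.98 in KO cells and 97.4 ± 0.748 in WT cells (SD, n = 3 each) and an adjusted p of 0.182 in limma. A further WT-only region at 106179496 to 106180920 had WT folds of 5.13, 7.53 and 7.33. Inside the gene, 7 of 8 regions were in no KO list, where 46.1% of all regions away from starts were. Of the 8, 5 stood in a single WT list, against 16971 of all 65609 regions away from starts. In all 3 WT lists stood 1 of the 8, against 46.7% of all regions away from starts. The exception at 106103448 to 106107553, called in all 6 lists, had folds of 6.32, 5.57 and 4.77 in KO libraries and 7.05, 6.08 and 7.96 in WT libraries, with an adjusted p of 0.815 in limma. The 6 shared regions of PRDM1 had a median score difference of -0.14, with 4 below 0 and 2 above, or -0.01 with 3 on each side when centred on the chromosome.

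XBP1 is the most compact of the 7, on chromosome 22 at 28794560 to 28800569, minus strand. One region at 28798663 to 28802888 covered both annotated starts, and the peak summits of all libraries lay within 132 bases of one of them. Folds were 19.0, 13.4 and 13.5 in KO libraries and 14.3, 17.7 and 13.2 in WT libraries. The percentiles were 89.7, 69.6 and 77.1 in KO libraries and 67.2, 69.5 and 58.9 in WT libraries, a difference of 0.45 ± 0.224 in score (SE) with an adjusted p of 0.216 in limma. KO replicate 2 and WT replicate 2 were nearly level.

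All 5 shared regions of XBP1 had KO ranks above their WT ranks in every pair of libraries, where 17.8% of all shared regions did so. Their median score difference was 0.53, though this median was -0.08 when scores were centred on each chromosome. The call was for 28882714 to 28884465, 82145 bp upstream inside ZNRF3, a ubiquitin ligase gene. Percentiles were 71.1, 86.2 and 68.6 in KO libraries and 49.7, 46.1 and 31.7 in WT libraries, and the score was higher in KO cells by 0.90 ± 0.224 (SE), with an adjusted p of 0.0475 in limma. XBP1 had no WT-only region among 6 called in 3 WT lists, against 17.3% over all regions. Its 1 internal region, next to the start region, was called in KO replicate 2 with a fold of 3.93 and in no WT list. Its strongest distal region, at 28741382 to 28742793 and at starts of CHEK2 and HSCB, had folds of 16.8 ± 2.05 in KO cells and 15.7 ± 1.87 in WT cells (SD, n = 3 each) and an adjusted p of 0.124 in limma.

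Chromosome 22 as a whole moved the same way. Its 506 shared regions had a median score difference of 0.56, the first of 22 autosomes, and shared regions up to 1 Mb around XBP1, outside its window, had a median of 0.50. With scores centred on each chromosome in each library, a choice made after seeing the data, XBP1 had 3 regions below 0 and 2 above, and the ZNRF3 region had 0.29 with an adjusted p of 0.467 in limma. The higher ranks near XBP1 were thus shared with its chromosome.

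POU2F2 lies on chromosome 19 at 42086110 to 42197936, minus strand. Its only start region, at 42132656 to 42133850, lies inside the gene record beside the 1 annotated start given for POU2F2. No list had a peak within 1 kb of the upper end of the record, where the minus-strand record begins. The start region was weak in both groups and higher by rank in KO cells. Folds were 6.02, 7.54 and 7.58 in KO libraries and 5.13, 6.32 and 4.61 in WT libraries. Percentiles were 20.3, 30.3 and 40.9 in KO libraries and 6.07, 8.92 and 3.66 in WT libraries, and all KO values lay above the WT values. The score difference was 1.04 ± 0.213 (SE), with an adjusted p of 0.0316 in limma, while pileups were 19, 22 and 26 in KO libraries and 23, 25 and 21 in WT libraries. Counted from the start at 42132446 in the direction of the gene, the summits lay at -811 to -590 bases, outside the bases printed for POU2F2.

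At a start of CIC, the gene of a transcriptional repressor, the region at 42282935 to 42285249 was also higher by rank in KO cells. It lies 84999 bp upstream of POU2F2. Pileups were 75, 77 and 57 in KO libraries and 54, 60 and 64 in WT libraries. Folds were 21.6 ± 4.78 in KO cells and 13.4 ± 1.55 in WT cells (SD, n = 3 each). The percentiles were 94.3, 94.2 and 85.1 in KO libraries and 53.7, 58.2 and 61.1 in WT libraries, with a score difference of 1.20 ± 0.200 (SE) and an adjusted p of 0.0225 in limma. The strongest distal region of POU2F2, at 42267652 to 42271366 and also at a start of CIC, had folds of 41.2 ± 1.19 in KO cells and 38.5 ± 5.57 in WT cells (SD, n = 3 each) and an adjusted p of 0.110 in limma.

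All 10 shared regions of POU2F2 had score differences above 0, with a median of 0.63, where 48.7% of all shared regions were above 0. In 7 of them every KO rank was above every WT rank, where 17.8% of all shared regions did so. Most of the 9 distal ones lay at starts of other genes, namely ZNF574, DEDD2, ZNF526, GSK3A, ERF and CIC. Over all shared start regions 58.1% were above 0. The chromosome of POU2F2 had a median of 0.53 over 1030 shared regions, the second of 22 autosomes. After centring on the chromosome the median of POU2F2 was 0.11, with 7 regions above 0 and 3 below, the start region had 0.51 with an adjusted p of 0.165, and the CIC region had 0.68 with an adjusted p of 0.0984 in limma. None of the 10 regions called in 3 WT lists was WT-only, against 17.3% over all regions. The strongest internal region, at 42176820 to 42177707, had folds of 7.87 and 4.21 in KO replicates 2 and 3 and 5.13 and 6.29 in WT replicates 1 and 3.

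POU2AF1, on chromosome 11 at 111352255 to 111379275, had 8 shared regions, all with a score difference below 0, where 48.7% of all shared regions were above 0. Of the 8, 2 passed the threshold. Its region at 111378612 to 111380056, over the upper end of the gene record, was called in all 6 lists with folds of 4.21, 4.92 and 5.61 in KO libraries and 8.76, 12.4 and 10.1 in WT libraries. Pileups were 13, 14 and 19 in KO libraries and 40, 50 and 47 in WT libraries. Percentiles were 2.41, 5.78 and 18.2 in KO libraries and 32.7, 46.1 and 39.2 in WT libraries, so the groups did not overlap. The score difference was -1.21 ± 0.270 (SE), with an adjusted p of 0.0368 in limma, the lowest score among the 8 shared start regions of the 7 genes.

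A distal region of POU2AF1 at 111436251 to 111437754, 56976 bp from the upper end and inside BTG4, was lower too. Its folds were 6.62, 8.20 and 6.17 in KO libraries and 12.8, 14.8 and 14.7 in WT libraries. The score was -0.83 ± 0.174 (SE), with an adjusted p of 0.0330 in limma. Both internal regions had score differences below 0 without passing the threshold, and the stronger, at 111370635 to 111372321, had folds of 10.1 ± 1.19 in KO cells and 17.4 ± 1.97 in WT cells (SD, n = 3 each) with an adjusted p of 0.176 in limma. The strongest distal region, at 111298855 to 111300335 on the far side of the gene and at a start of POU2AF3, had folds of 9.03, 13.1 and 13.2 in KO libraries and 22.0, 20.9 and 19.9 in WT libraries, with an adjusted p of 0.122 in limma. The median over the 8 shared regions was -0.58, and 4 had every KO rank below every WT rank, as did 17.3% of all shared regions, while the other 4 overlapped.

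For POU2AF1 the chromosome moved less than the gene. Its median was -0.18 over 1295 shared regions, and shared regions up to 1 Mb around the gene had a median of -0.24, with 20 of 25 below 0. After centring on the chromosome all 8 regions stayed below 0 with a median of -0.43, while the start region had -1.06 with an adjusted p of 0.0627 and the BTG4 region -0.68 with an adjusted p of 0.0673 in limma. POU2AF1 and POU2F2, a coactivator and its DNA-binding partner, thus had start regions that changed by rank in opposite directions, each against its own WT values. The POU2F2 region lies inside its gene record and not at the outer end, and neither call held after centring on chromosomes. No region of POU2AF1 was WT-only among 11 called in 3 WT lists, against 17.3% over all regions.

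**Figure D4:**
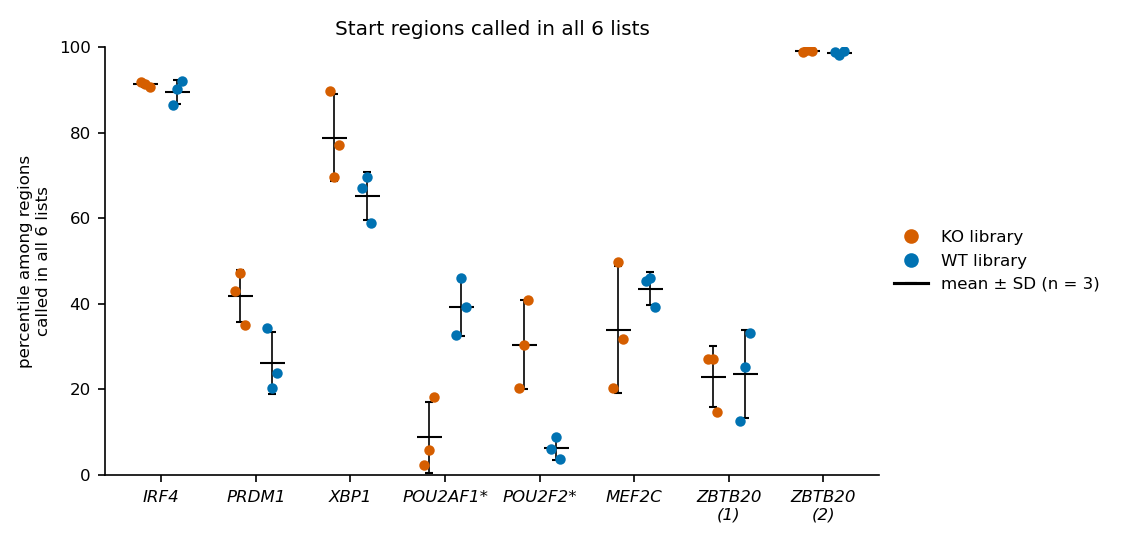
Percentile by −log10 p-value among the 23589 regions called in all 6 lists (vertical) for the 8 start regions of the 7 genes called in every list, with KO libraries in orange and WT libraries in blue, and mean ± SD of 3 libraries. A star marks an adjusted p under 0.05 in limma, at POU2AF1, where KO values lie below WT values, and at POU2F2, where they lie above.

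MEF2C lies on chromosome 5 at 88717117 to 88904105, minus strand, with 7 annotated starts in the table. The region at 88881146 to 88885132 covered 2 of them and was called in all 6 lists. Its folds were 6.02, 9.83 and 6.74 in KO libraries and 10.5, 12.4 and 10.1 in WT libraries. Percentiles overlapped, at 34.0 ± 14.9 in KO cells and 43.6 ± 3.82 in WT cells (SD, n = 3 each), with an adjusted p of 0.446 in limma.

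Farther into MEF2C the start regions had WT calls alone. At 88827208 to 88829629, beside the start at 88827192, no KO list had a peak and the WT folds were 5.98, 4.13 and 5.66, with summits at -973 to -902 bases from that start and thus outside the printed bases. At 88785489 to 88786168 the WT folds were 3.84 in replicate 1 and 4.82 in replicate 3, and the other 4 lists had no peak. Of 12 internal regions 10 were in no KO list, against 46.1% of all regions away from starts. A single WT list held 7 of the 12, against 16971 of all 65609 regions away from starts. All 3 WT lists held 5 of the 12, against 46.7% of all regions away from starts. WT-only were 3, at 88761365 to 88762361, 88818271 to 88819115 and 88873045 to 88873652, with mean WT folds of 4.65 ± 0.721, 4.19 ± 0.808 and 4.05 ± 0.151 (SD, n = 3). In all, 4 of the 12 MEF2C regions called in 3 WT lists were WT-only (33.3%, against 17.3% over all regions), and none of them was so at equal list length.

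Shared MEF2C regions went both ways. The 7 had a median of -0.13, with 5 below 0, but 0.05 with 2 below 0 when centred on the chromosome, whose median was -0.18. The strongest distal region, at 88683164 to 88684102 past the gene end, had folds of 13.2, 15.7 and 12.9 in KO libraries and 18.4, 21.4 and 18.7 in WT libraries, with an adjusted p of 0.560 in limma. Inside the gene the strongest, at 88888815 to 88890813, had folds of 7.83, 8.52 and 9.26 in KO libraries and 8.97, 16.5 and 11.7 in WT libraries, which overlapped. At 88674046 to 88676610, past the gene end, every KO rank was below every WT rank, with percentiles of 49.8 ± 15.1 in KO cells and 73.8 ± 4.08 in WT cells (SD, n = 3 each), a score difference of -0.64 and an adjusted p of 0.0991 in limma. By rank no MEF2C region passed the threshold in either direction.

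ZBTB20, the longest of the 7 genes, lies on chromosome 3 at 114314500 to 115147288, minus strand. The region at its outermost start, 115145678 to 115148652, was the strongest start region of the 7 genes. Its folds were 35.5, 45.9 and 37.0 in KO libraries and 42.5, 46.7 and 46.5 in WT libraries, and its percentiles were 99.1 ± 0.213 in KO cells and 98.7 ± 0.444 in WT cells (SD, n = 3 each). Both groups thus had it in the top 2% of shared regions, with an adjusted p of 0.626 in limma.

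Starts inside ZBTB20 were weaker. The region at 114383724 to 114384715 had folds of 6.62, 7.21 and 5.33 in KO libraries and 6.19, 8.99 and 9.22 in WT libraries, with an adjusted p of 0.986 in limma. At 114900396 to 114901077 a peak was called in KO replicate 2, with a fold of 3.61, and in WT replicates 2 and 3, with 6.08 in each. Of the 22 internal regions 14 were in no KO list, against 46.1% of all regions away from starts, and 9 were in all 3 WT lists, against 46.7%. A single WT list held 8 of the 22, against 16971 of all 65609 regions away from starts.

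A ZBTB20 intragenic region at 114721566 to 114722580 was the WT-only region with the highest WT folds, 8.12, 6.81 and 9.64, and the one that was still WT-only at equal list length. Its WT pileups, which are not adjusted for depth, were 37, 27 and 45. The weakest peaks of the KO lists had pileups of 9 or 10 and folds of 3.09 to 3.31. These KO pileups lie over a background that was 65.6% of the WT background. The other WT-only region of ZBTB20, at 115237769 to 115238607, 90481 bp upstream, had WT folds of 3.63, 5.35 and 5.24. Among its 9 shared regions 6 had differences below 0, the median was -0.06, or 0.01 when centred on the chromosome, and none passed the threshold. The strongest of the internal ones, at 114582531 to 114583671, had folds of 12.5 ± 2.84 in KO cells and 16.6 ± 3.42 in WT cells (SD, n = 3 each). Upstream of the gene, the region at 115217504 to 115219954 was the strongest distal one by mean percentile over the 6 lists. Its pileups, which are not adjusted for depth, were 39, 32 and 30 in KO libraries and 63, 94 and 110 in WT libraries. Its percentiles among the shared regions were 69.7, 56.4 and 50.9 in KO libraries and 64.2, 82.8 and 89.4 in WT libraries, which overlapped. The adjusted p was 0.144 in limma. On the far side, the region at 114290689 to 114291867 had the higher KO folds, 13.8 ± 2.56 in KO cells and 11.7 ± 3.40 in WT cells (SD, n = 3 each), with every KO rank above every WT rank, a score difference of 0.76 and an adjusted p of 0.0822 in limma.

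**Figure D5:**
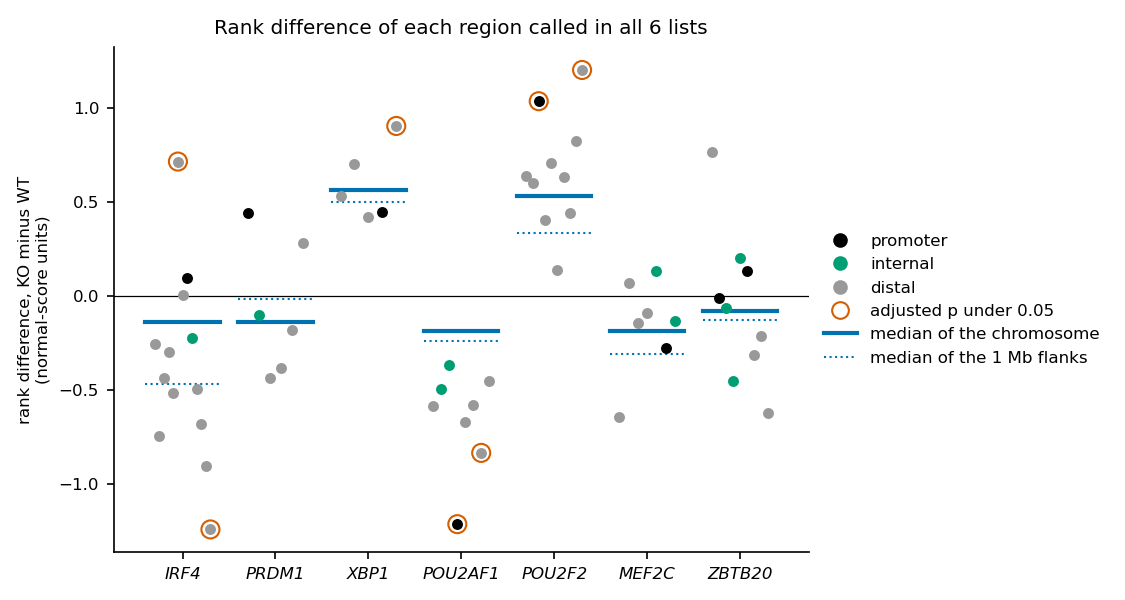
Score difference by rank, KO minus WT in normal-score units (vertical), for the 58 regions called in all 6 lists, by gene, with promoter regions in black, internal in green and distal in grey. Rings mark an adjusted p under 0.05 in limma, blue lines the median of the chromosome and dotted lines that of the 1 Mb flanks. XBP1 and POU2F2 lie above 0 with their chromosomes, with medians of -0.08 and 0.11 once centred on them, and POU2AF1 lies below 0 with a median of -0.43 once centred.

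All 7 gene medians had the sign of the median of their chromosome, and the sizes differed. Medians of the shared regions ran from -0.58 at POU2AF1 to 0.63 at POU2F2, and those of their chromosomes from -0.18 to 0.56. For IRF4 the median was -0.44 against -0.14 for chromosome 6, but shared regions up to 1 Mb around the gene had -0.47, with 11 of 12 below 0. PRDM1, on the same chromosome, had -0.14 with -0.02 around it. Of the 7 calls, those at EXOC2 and DUSP22 near IRF4 held in the fit centred on chromosomes, with adjusted p of 0.0249 and 0.0415 in limma. Start regions over the genome had a median score difference of 0.09 and other regions -0.09, with 1.13% of start regions lower and 5.41% higher in KO cells, against 4.17% and 3.33% of other regions.

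The network of these factors was counted at starts only. Either end of the record counted for genes without a given start, CIITA and DERL3 among them. Among 17 partners and co-regulators, 11 had a start region in all 6 lists, 4 in part of them and 2 (SPI1 and SPIB) in none. By rank 2 were higher in KO cells, the acetyltransferase genes CREBBP, with a score difference of 1.72 and an adjusted p of 0.0164, and EP300, with 0.78 and an adjusted p of 0.0312 in limma. Of 10 factors of the B cell state, 6 were in all 6 lists, and CIITA (0.94) and KLF2 (0.83) were higher, with adjusted p of 0.0353 and 0.0473 in limma. Of 16 targets in plasma cells, 14 were in all 6 lists. Of these 14, DERL3 was higher (0.98, adjusted p of 0.0243 in limma) and none was lower. The other 2, JCHAIN and SLAMF7, stood in 0 KO and 3 WT lists and so could not be compared by rank. Over all shared start regions 5.41% were higher and 1.13% lower. The median difference was 0.02 for the partners, 0.60 for the B cell factors and 0.29 for the targets, against 0.09 over all shared start regions. These lists were not tested. With scores centred on each chromosome, CREBBP alone of these 5 genes passed, with 1.39 and an adjusted p of 0.0187 in limma.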

How the data were processed

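Each of the 6 ATAC-seq libraries has its own deposited list of narrow peaks, so the authors called peaks per library. Trimmomatic, FastQC, MultiQC, Bowtie2 and MACS2 2.1.2 and the build GRCh38 are named in the submitters' processing notes, without settings. Whether reads were shifted for the Tn5 offset, or duplicates removed, is not stated there. The deposited lists give, per peak, the authors' score, fold (a ratio over background), and p-value and q-value, both as −log10. Folds describe peaks within a list and percentiles rank them by −log10 p-value. Percentiles of whole lists of unequal length show no change, so ranks were compared over shared regions only.

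Each list has 1 mitochondrial peak, which was dropped. A region took the strongest peak of each library by −log10 p-value. Gene records and starts came from RefSeq tables (GRCh38.p14). For POU2AF1 either end of the record counted as a start. For the other member genes the start-side end of the record was added to the starts in the table. Genes of the marker and network lists had their starts in the table, without that addition. Where the table gave none, either end of the record counted, so the region may lie at the far end of the gene. That held for 5 of 17 partners, 2 of 10 B cell factors and 3 of 16 targets. CIITA, DERL3, SLAMF7, TNFRSF17, CD3E and HBA1 were among such genes. Normal scores were fitted with limma 3.58.1 in R 4.3.3 with genotype as the only term, and Python 3.11.15 did the rest. Background pileups were recovered from the steps of the deposited fold values, all of which were whole multiples of 1 step per list below a fold of 100, within 0.02 of a step. Named with values are start regions, WT-only regions, regions past the threshold and the strongest internal and distal regions of each gene; a few other regions were added after their values were seen. The members and lists were chosen with earlier results of these data known. Alternatives were other list lengths, thresholds, merges, windows, ranked values, libraries left out and a replicate block.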

Additional observations from a re-analysis of the deposited data

How the results depend on the processing

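WT-only regions near the 7 genes numbered 13 of 86, against 17.3% over all regions. There were 1 of 67 at equal list length (against 7.24%) and 6 of 77 with a fold of at least 4 (against 15.55%). When 1 library was left out there were 15 to 22, of 86 to 97, against 19.9% to 22.4% over all regions. A −log10 q-value of at least 5 gave 10 of 79 (against 18.35%). KO-only regions stayed at 0 with each of these, where the share over all regions was 0.387% to 3.82%. By rank, 3 regions were lower and 4 higher in KO cells. Windows of 50 kb gave 1 lower and 2 higher, windows of 10 kb 1 and 1, and scores centred on each chromosome, chosen after seeing the data, 1 and 1. Leaving out 1 library in turn gave 0 to 3 lower and 0 to 1 higher, and 0 of both without any 1 of the WT libraries. The replicate block also gave 0 lower and 0 higher, with a smallest adjusted p of 0.0569 over all regions and 6344 regions at an unadjusted p under 0.05. Same-numbered libraries did not deviate together (correlations of -0.032, 0.003 and -0.156). With 3 libraries per genotype these values cannot tell whether the numbers stand for shared batches. The score difference of the XBP1 start region was -0.17 with scores centred on each chromosome (adjusted p of 0.673 in limma), against 0.45 without centring. Background pileups were lower in KO libraries, the part of depth in the missing KO calls was not tested, and where a setting moved a value the cause was not tested.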
